A study of Mus musculus with 6 samples.

Results

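The surfactant proteins and the genes of the lamellar body were examined in 6 ribosome profiling (Ribo-seq) libraries of mouse tissues. The set held 7 genes, taken by name: the 4 surfactant proteins Sftpa1, Sftpb, Sftpc and Sftpd, the lipid transporter Abca3, the lysosomal glycoprotein Lamp3 and the aspartic protease Napsa. Each was found through its Ensembl gene ID, so 7 members stood among the 18437 mRNAs that the libraries listed in all. Ribo-seq sequences the short mRNA fragments that ribosomes cover, and the level of an mRNA is given as its ribosome density (RPKM), the reads on its coding sequence (CDS) scaled by CDS length and by the reads of the library. The labels were lung, heart, brain, kidney, colon and small intestine, with 1 library each, from untreated wild-type C57BL/6J mice at 4 weeks of age. The libraries held 4504853 to 10635031 reads on CDSs, and that labelled lung held 7730352.

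Pulmonary surfactant is a film of phospholipid and protein that lowers surface tension in the alveoli. It is made by alveolar type II cells, which store it in lamellar bodies, organelles related to lysosomes, and release it onto the alveolar surface. SP-B and SP-C (Sftpb and Sftpc) are small hydrophobic proteins cut from longer precursors and act within the lipid film. SP-A and SP-D (Sftpa1 and Sftpd) are soluble collectins, lectins with a collagen-like stalk that bind sugars on microbes.

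With 1 library per labelled tissue there was no replicate error, so no p-value is given between tissues. Intervals are exact Poisson, binomial or Wilson intervals of read counts at a level of 95%, and they cover counting error only. Reads were amplified by PCR without molecular identifiers, so they are not independent molecules. Tissue markers went against 4 of the 6 labels. All 4 markers of small intestine were highest in the library labelled brain, those of kidney in that labelled colon, those of colon in that labelled kidney and those of brain in that labelled small intestine. The 4 heart markers and the 4 lung markers were each highest under their own label. Libraries are therefore called by their labels, and the results that rest on those labelled heart or colon are also given without them.

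Each member lay at a single locus, given here on GRCm39 with GENCODE M39. Sftpa1 (chr14:40853739-40858551, plus strand) and Sftpd (chr14:40894170-40907128, minus strand) were separated by 35.6 kb, with the start of the collectin gene Mbl1 between them, and Sftpc (chr14:70758389-70761524, minus strand) lay 29.9 Mb farther along the same chromosome. Sftpb was at chr6:72281594-72291354 and Napsa at chr7:44221804-44236295, both on the plus strand. Lamp3 was at chr16:19472128-19525125 on the minus strand and Abca3 at chr17:24570895-24629842 on the plus strand. Taken over all annotated transcripts of each gene, the coding parts of Sftpd and Mbl1 overlapped by 124 nt, on opposite strands. The CDSs counted here were compared in 28-nt windows, about the length of a ribosome footprint. On either strand, 6 of the 7 members, Sftpd among them, shared no window with another listed mRNA. Abca3 shared 238 of its 5085 windows with Abca17, and reads that mapped to both were left out by the authors.

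The coding stretches that distinguish the surfactant proteins are printed because all the values below count ribosomes on these CDSs. In Sftpc, the capitals mark valine codons (GTN) in codons 30 to 49 at chr14:70760109-70760168, minus strand. In Sftpa1 (codons 28 to 57, chr14:40854496-40854585, plus strand) and Sftpd (codons 45 to 74, minus strand, chr14:40904894-40904957 joined to chr14:40899341-40899366), the capitals mark glycine codons (GGN) that begin each collagen triplet.
Sftpc: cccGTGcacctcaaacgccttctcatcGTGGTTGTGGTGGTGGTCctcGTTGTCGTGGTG
Sftpa1: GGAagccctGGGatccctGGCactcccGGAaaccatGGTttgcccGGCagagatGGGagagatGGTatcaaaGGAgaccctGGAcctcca
Sftpd: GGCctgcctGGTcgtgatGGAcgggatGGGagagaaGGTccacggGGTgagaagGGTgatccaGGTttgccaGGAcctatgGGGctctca
The Sftpc stretch encodes the start of the hydrophobic segment of SP-C and held 11 GTN codons in 20, a number reached by 5 of the 18154 CDSs compared, Sftpc included. The collagen-like run comprised 13 triplets in Sftpa1 (codons 28 to 66) and 59 in Sftpd (codons 45 to 221), and 78 and 25 CDSs had runs at least as long. Sftpb, whose mature peptide is held together by disulphide bonds, had 26 cysteine codons among 377, a share of 6.90%.

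The members differed in length and codon use. Their CDSs ran from 193 codons (Sftpc) to 1704 codons in 30 coding exons (Abca3). The share of codons ending in G or C was lowest in Lamp3 (36.3%, with 3.67% of CDSs lower) and Sftpd (43.0%), and highest in Abca3 (68.8%, with 80.5% of CDSs lower), around a median of 58.9% over all CDSs. Sftpa1 stood at 49.8%, Sftpc at 63.0%, Napsa at 63.5% and Sftpb at 64.7%. The surfactant proteins thus lay on both sides of the median.

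Sftpc, the most hydrophobic of the surfactant proteins, was the mRNA with the highest ribosome density in the library labelled lung. It stood at 39331.5 RPKM there (176043 reads, interval 39148 to 39516 RPKM). The other libraries gave 200.1 RPKM under the heart label, 119.6 under colon, 24.8 under kidney, 11.7 under brain and 3.84 under small intestine. The lung label was thus far above all others, and the ratios of neighbours in this order all had intervals above 1.

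Sftpa1, which encodes the main collectin of surfactant, ranked 3 in the library labelled lung, at 13266 RPKM (76298 reads, interval 13172 to 13361 RPKM). It stood at 112.2 RPKM under the heart label, 38.2 under colon, 11.2 under kidney and 2.53 under brain, and a single read gave 0.176 under small intestine. The order of the libraries was that of Sftpc. Sftpd, the collectin with the longer stalk, reached 896.8 RPKM under the lung label (7778 reads), where it ranked 121. It stood at 8.39 RPKM under heart, 5.94 under colon, 1.88 under kidney and 0.933 under small intestine, and no read was found under brain, where 3 reads would give 0.251 RPKM. Heart and colon labels differed for Sftpd by less than counting error (ratio 1.41, interval 0.916 to 2.23), as did kidney and small intestine labels.

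Sftpb had the lowest level of the 4 surfactant proteins in the library labelled lung, at 304.0 RPKM (2658 reads, interval 292.6 to 315.8 RPKM). It stood at 6.59 RPKM under the heart label, 1.18 under colon, 1.08 under brain and 0.816 under kidney. No read was found under small intestine, where 3 reads would give 0.347 RPKM. The colon, brain and kidney labels held 6, 13 and 7 reads of Sftpb and could not be ordered beyond counting error.

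Lamp3 (also DC-LAMP), a membrane protein of the lamellar body, was also highest under the lung label. It reached 776.9 RPKM under the lung label (7405 reads), 4.36 under heart, 2.52 under colon and 0.321 under kidney. Under the brain and small intestine labels no read was found, where 3 reads would give 0.229 and 0.318 RPKM. Lamp1, the widespread lysosomal member of the family, was only 1.20-fold (interval 1.17 to 1.24) above Lamp3 per CDS length under the lung label, but 173.5-fold above it under heart and 467-fold above it under colon.

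**Figure D1:**
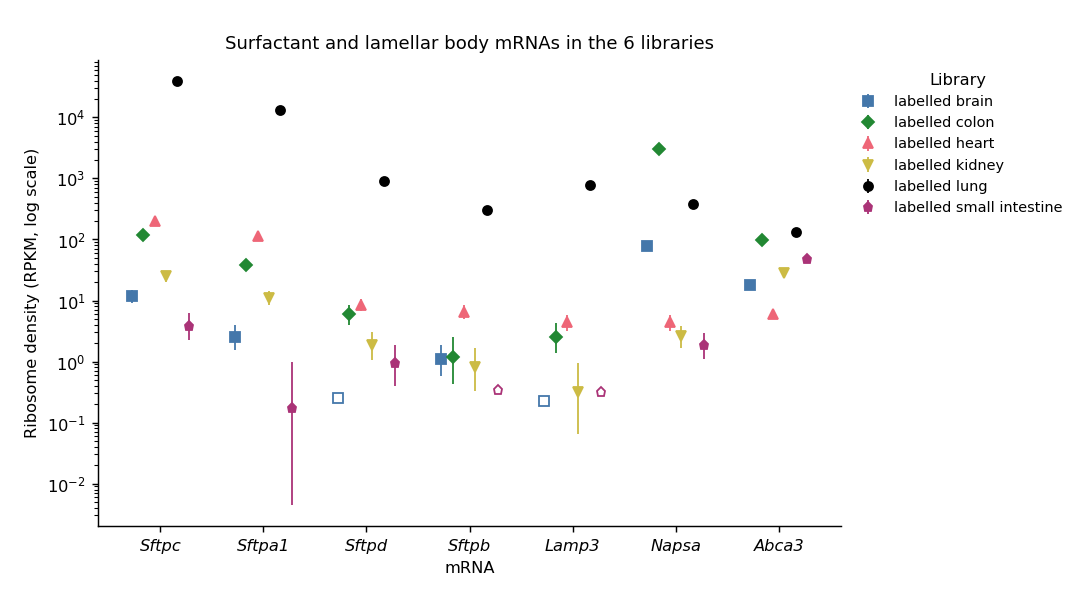
Ribosome density (RPKM, log scale) of the 7 members in the 6 libraries, with 95% exact Poisson intervals of the reads. Open symbols mark 0 reads and are drawn at the level of 3 reads. 6 members are highest under the lung label and Napsa under the colon label, and Abca3 is spread over the narrowest range.

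Napsa and Abca3 departed from this pattern. Napsa, the aspartic protease that takes part in processing the SP-B precursor and is also known from kidney tubules, was highest in the library labelled colon, which held the kidney markers. It stood there at 3049.5 RPKM (17268 reads), as the mRNA ranked 29. The lung label gave 386.7 RPKM (3758 reads), the brain label 77.5, heart 4.37, kidney 2.62 and small intestine 1.87. The colon label was 7.89-fold above lung (interval 7.61 to 8.17), where 4.69% of mRNAs were at least 5-fold higher under colon than under lung, and lung was 4.99-fold above brain (interval 4.66 to 5.35). Without the library labelled colon, Napsa too would be highest under the lung label.

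Set against Ctsd, the common lysosomal aspartic protease, Napsa stood at 7.86-fold under the colon label, 0.730-fold under lung and 0.475-fold under brain, and at or below 0.00736-fold in the other libraries. The kidney markers Umod, Slc34a1, Slc12a1 and Kap were also expressed as a percent of their colon-labelled level. In the library labelled lung they stood at 0.345% to 0.861% of that level, whereas Napsa stood at 12.7% (interval 12.2 to 13.1). In the library labelled brain they stood at 0.827% to 4.16%, and Napsa at 2.54%, inside that range. Napsa thus exceeded all 4 kidney markers in the library labelled lung and not in that labelled brain.

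Abca3, the transporter that moves phospholipid into lamellar bodies, was detected in every library, with 247 reads or more. It stood at 132.0 RPKM under the lung label (5215 reads), 98.5 under colon, 48.4 under small intestine, 28.6 under kidney, 17.7 under brain and 5.90 under heart. The lung label was 1.34-fold above colon (interval 1.27 to 1.41) and 22.3-fold above heart, and each neighbouring pair in this order differed by more than counting error. The step from colon to lung depended on scaling and fell to 1.07-fold with TMM scaling, a trimmed mean of ratios between libraries. Abca1, a relative that exports cholesterol, lay below Abca3 under the colon label (Abca3 5.61-fold over Abca1) and the lung label (4.44-fold), and above it under heart and brain (0.288-fold and 0.828-fold).

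The relative output of the 4 surfactant proteins was compared per CDS length in the library labelled lung. Sftpc made up 73.1% of their summed RPKM, Sftpa1 24.7%, Sftpd 1.67% and Sftpb 0.565%. Sftpc was 2.96-fold above Sftpa1 (interval 2.94 to 2.99), 43.9-fold above Sftpd (interval 42.9 to 44.9) and 129-fold above Sftpb (interval 125 to 134). Sftpc has the shortest CDS of the set, so its share was larger per length than per read. As shares of reads, which weigh an mRNA by the codons being translated, the values were 67.0% for Sftpc, 29.0% for Sftpa1, 2.96% for Sftpd and 1.01% for Sftpb, so the order was kept. Together the 4 mRNAs took 3.40% of all reads on CDSs in that library (Wilson interval 3.39 to 3.41), and the 7 members took 3.61%. In the other libraries the 4 took between 0.000340% (26 reads, small intestine label) and 0.0216% (1769 reads, heart label).

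**Figure D2:**
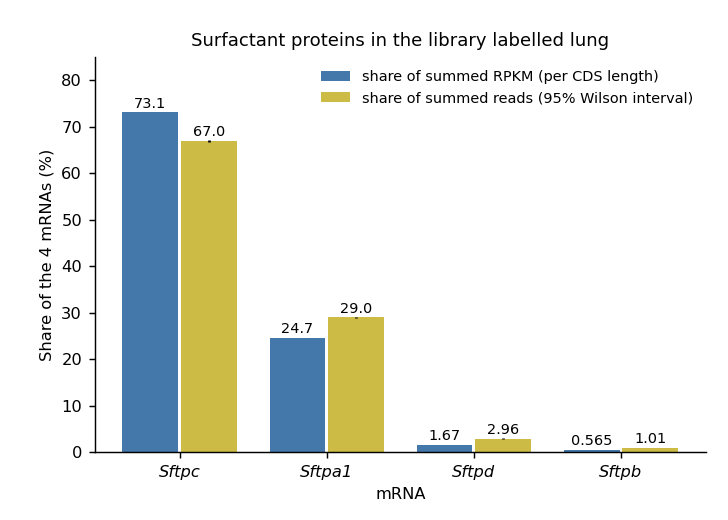
Share of each surfactant protein mRNA in the sum of the 4 in the library labelled lung (% on a linear axis), per CDS length (blue) and per read (yellow, with 95% Wilson intervals too narrow to see). Sftpc and Sftpa1 hold all but a few percent under both measures.

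The library labelled lung was then set against the highest of the other 5 for each mRNA, with a library of 0 reads set to 3 reads. At least 10-fold was called higher, by a rule of size and not a test. By this rule 5 of the 7 members were higher, where 2.61% of the 10215 mRNAs with at least 10 reads in that library were. All 7 members passed this filter, and it asks only for reads under the lung label. Sftpc was 197-fold higher (interval 184 to 210), Lamp3 178-fold (133 to 245), Sftpa1 118-fold (110 to 128), Sftpd 106.9-fold (85.4 to 136) and Sftpb 46.1-fold (35.8 to 60.5). In all 5 the next highest library was that labelled heart. Without it they were 329-fold, 308-fold, 347-fold, 151-fold and 258-fold higher, so Sftpb and Sftpa1 moved most. At 5-fold the same number of members, 5, and 5.57% of mRNAs were above the limit. At 100-fold, 4 members and 0.186% of mRNAs were above it.

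Abca3 (1.34-fold) and Napsa (0.127-fold) were not called. Being highest under the lung label was in itself common, with 37% of these mRNAs against 6 of the 7 members, while 14.8% were highest under the colon label, as Napsa was. The median fold over all 10215 mRNAs was 0.711.

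**Figure D3:**
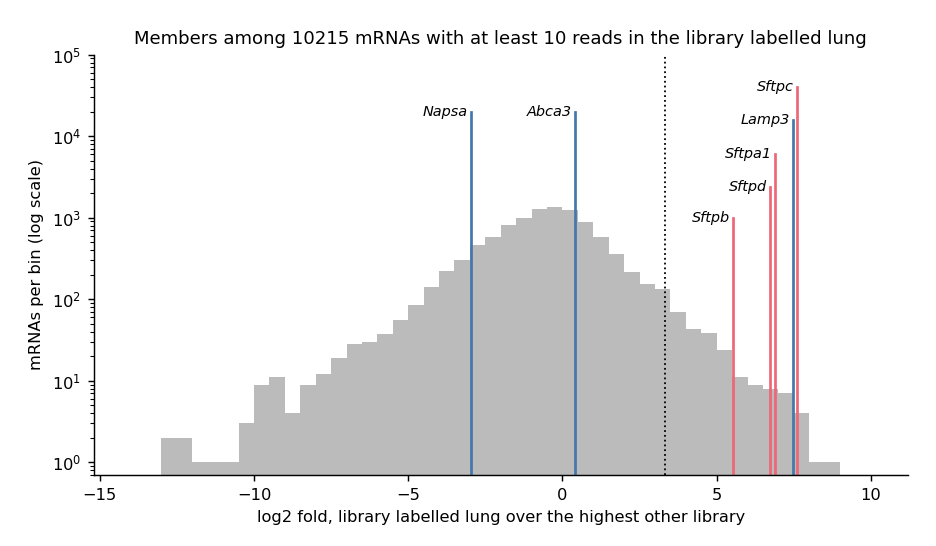
Distribution of the log2 fold of the library labelled lung over the highest other library for 10215 mRNAs (grey, counts on a log scale), with the surfactant proteins (red lines) and the other members (blue lines). The height of a line only places its name, and the dotted line marks 10-fold. Sftpc, Lamp3, Sftpa1, Sftpd and Sftpb lie in the upper tail. Abca3 lies within the bulk and Napsa on the lower side, at rank 9219 by fold.

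Reads of the surfactant mRNAs were few but present outside the library labelled lung. Of the 35 pairs of a member and another library, 26 stood below 1% of the lung-labelled level. For the 4 surfactant proteins, the median was 0.890% under the heart label, 0.346% under colon, 0.147% under kidney, 0.0244% under brain and 0.00555% under small intestine. The 4 lung markers Ager, Cldn18, Scgb1a1 and Scgb3a2, chosen as markers of lung epithelium, gave medians of 0.618%, 0.261%, 0.0574%, 0.0943% and 0.00515% in the same libraries. Heart and colon labels were thus highest and the small intestine label lowest for both groups. In the opposite direction, the 4 heart markers stood in the library labelled lung at 0.314% to 1.17% of their heart-labelled level. The source of these reads was not tested.

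Within a library these low levels were not in 1 ratio. Under the heart label the share of the lung-labelled level was 0.509% for Sftpc (interval 0.477 to 0.542), 0.846% for Sftpa1 (0.783 to 0.912), 0.935% for Sftpd (0.737 to 1.17) and 2.17% for Sftpb (1.65 to 2.79). Sftpc was 30.4-fold above Sftpb there (interval 23.4 to 40.0), against 129-fold under the lung label. The ratio was 10.8 under the brain label, from 72 and 13 reads, and 30.4 under the kidney label, from 109 and 7 reads. Sftpb therefore stood higher, relative to Sftpc, under the heart, kidney and brain labels than under lung. Under the colon label the ratio of 102 had an interval of 46.1 to 279, which includes the lung-labelled value. Sftpc over Sftpd was 20.2 under the colon label (interval 13.8 to 30.4) and 23.9 under heart (18.9 to 30.5). It was 13.2 under kidney, from 109 and 16 reads, and 4.12 under small intestine, from 17 and 8 reads. The intervals of these Sftpd ratios all lay below the lung-labelled 43.9, the colon label included. Sftpc over Sftpa1 was 1.78 under the heart label (interval 1.61 to 1.97), below the lung-labelled 2.96. The intervals under colon (3.13, 2.54 to 3.88), kidney (2.22, 1.62 to 3.08) and brain (4.63, 2.79 to 8.02) included that value. Under the small intestine label the ratio was 21.8 (interval 3.42 to 913), above it but from 17 and 1 reads.

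**Figure D4:**
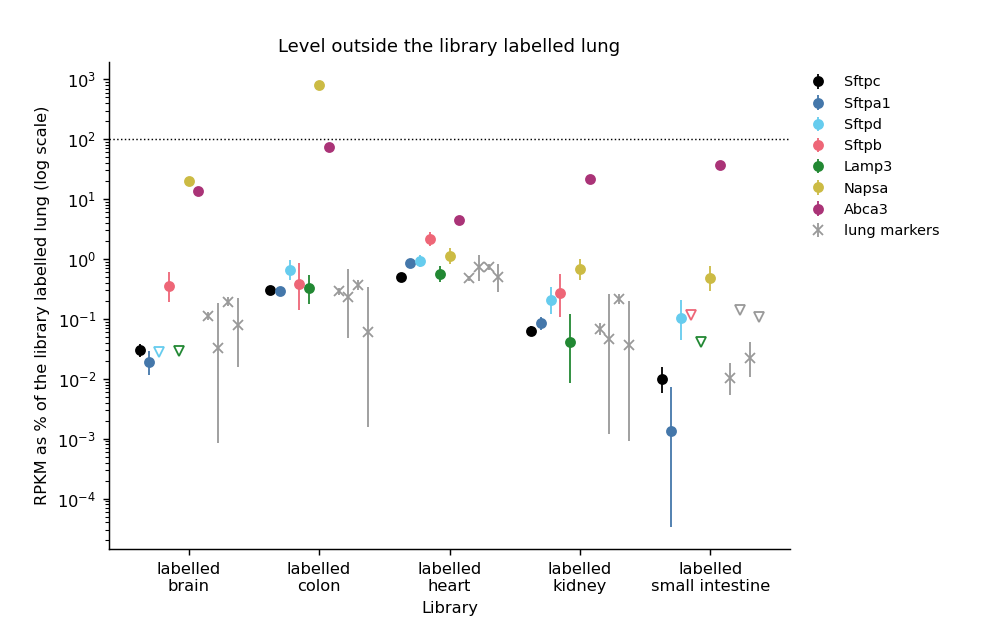
RPKM in each of the other 5 libraries as a percent of that in the library labelled lung (log scale), for the 7 members (circles) and the 4 lung markers (grey crosses), with 95% exact binomial intervals. Open triangles mark 0 reads, drawn at 3 reads, and the dotted line marks 100%. The surfactant proteins and Lamp3 stay below 1% except Sftpb under the heart label (2.17%). Abca3 does not, nor does Napsa under the colon, brain and heart labels (1.13% under heart).

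Genes that serve the same pathway were summarised by lists. In these and the lists below, only genes with at least 10 reads under the lung label were counted. Counts and medians thus leave out list genes with few or no reads there. Of the genes listed for surfactant protein processing and sorting, 0 of 7 with enough reads were called at 10-fold. Their median fold was 1.22, against 0.711 over all mRNAs. This list did not hold Napsa, counted as a member, or Pgc, which was called and is given below with the aspartic proteases. The highest of them were the ubiquitin ligase Nedd4 (194.7 RPKM under the lung label, 2.38-fold over the next library) and the SP-B processing protease Ctsh (117.2 RPKM, 1.83-fold), followed by the sorting adaptor subunit Ap3b1 (32.3 RPKM, 1.30-fold). Of the lipid supply and turnover genes 1 of 14 was called, the lecithin-remodelling enzyme Lpcat1, at 180.6 RPKM and 11.3-fold. The highest levels of the list were those of the fatty acid binding protein Fabp5, at 1255 RPKM and 1.67-fold, and of Prdx6, an enzyme of surfactant phospholipid turnover, at 1130 RPKM and 1.39-fold. The phosphate transporter Slc34a2 stood at 817.1 RPKM and 2.69-fold, with the library labelled brain next. The fatty acid synthase Fasn, at a lower level of 243.4 RPKM, stood at 5.36-fold, and Scd1 (134.7 RPKM) at 6.40-fold. Among the 14 compared, the lowest fold was that of Srebf1, at 0.197-fold, and 10 of the 14 were highest under the lung label. The gene of this list left out by the read filter, Chpt1, had 1 read under the lung label against 422 under colon. The median of this list was 2.03-fold.

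Of 13 regulators and clearance receptors, 11 had enough reads, and 2 of these were called. Nkx2-1, the transcription factor that drives surfactant genes, stood at 64.4 RPKM under the lung label (556 reads) and was 98.1-fold higher there (interval 44.8 to 268), with 0 to 6 reads in each other library. The receptor Adgrf5, which restrains surfactant pool size, stood at 1278 RPKM and 10.6-fold. Of the others with high levels, the transcription factor Klf5 stood at 91.0 RPKM and 0.0772-fold, with the library labelled brain highest, and the transcription factor Nfib at 68.8 RPKM and 1.56-fold. The median of the 11 was 1.56-fold. It leaves out Cebpa and P2ry2, each with 0 reads under the lung label, against 32 for Cebpa under colon and 34 for P2ry2 under heart.

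Of the other alveolar type II markers, 6 of 10 were called, with a median of 12.5-fold: Cxcl15 (192-fold), Hc (83.2-fold), Chi3l1 (38.5-fold), Lyz2 (14.4-fold), Muc1 (13.8-fold) and Lpcat1. Egfl6 (4.85-fold) and Slc34a2 (2.69-fold) were not called. Neither were S100g (0.158-fold, highest under the colon label) and Slc6a14 (0.110-fold, highest under the kidney label). Of 10 alveolar type I markers 4 were called, Rtkn2 (353-fold), Ager (211-fold), Cldn18 (137-fold) and Aqp5 (54.4-fold), with a median of 7.72-fold, while Emp2 (828.1 RPKM) at 9.88-fold and Gprc5a (741.2 RPKM) at 3.77-fold were not. Of 8 airway markers 6 were called, with a median of 88.7-fold: Bpifa1 (377-fold), Scgb3a2 (198-fold), Scgb1a1 (135-fold), Bpifb1 (91.0-fold), Cyp2f2 (86.5-fold) and Scgb3a1 (39.6-fold). The cilium-associated Tppp3 (1494 RPKM) was 3.16-fold higher. With TMM scaling 3 of the type II markers were called, and neither Lpcat1 nor Adgrf5 was. Folds of the size seen for the surfactant proteins were thus also present in the lists of alveolar type I and airway markers. In bulk tissue, more cells of a type and more ribosomes on an mRNA per cell cannot be told apart, and without mRNA levels neither can mRNA abundance and translation.

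Relatives of the members by family were mostly not called. Enough reads under the lung label were found for 9 of 15 ABCA transporters and 2 of 5 collectins. Abca13, left out with 3 reads there, had 2790 under the colon label. Of the other ABCA transporters 0 of 9 were called, with a median of 0.432-fold, and the highest under the lung label, Abca8a (182.9 RPKM), did not differ from heart (185.4 RPKM) beyond counting error (ratio 0.986, interval 0.954 to 1.02). Abca8b (17.2 RPKM) stood at 1.37-fold. In the LAMP family 0 of 3 were called, and Lamp1 (934.7 RPKM) stood at 0.794-fold, Lamp2 (148.4 RPKM) at 0.214-fold and Cd68 (5.53 RPKM) at 3.01-fold. The saposin and BRICHOS relatives of Sftpb and Sftpc gave 0 of 4, with Itm2b (2778 RPKM) at 0.920-fold, Itm2c (698.1 RPKM) at 0.278-fold and Psap (297.1 RPKM) at 0.220-fold. Of the other aspartic proteases 1 of 5 was called, the pepsinogen Pgc, at 15.0 RPKM from 136 reads under the lung label and 0 elsewhere. With 0 reads set to 3 its fold was 26.4, and its interval had a lower end of 21.2. Ctsd (530.1 RPKM) stood at 0.528-fold and Bace2 (11.5 RPKM) at 0.835-fold. Of the other collectins 0 of 2 were called, with Colec12 at 124.4 RPKM and 5.03-fold and the overlapping gene Mbl1 at 6.50 RPKM (36 reads) against 7778 reads for Sftpd.

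**Figure D5:**
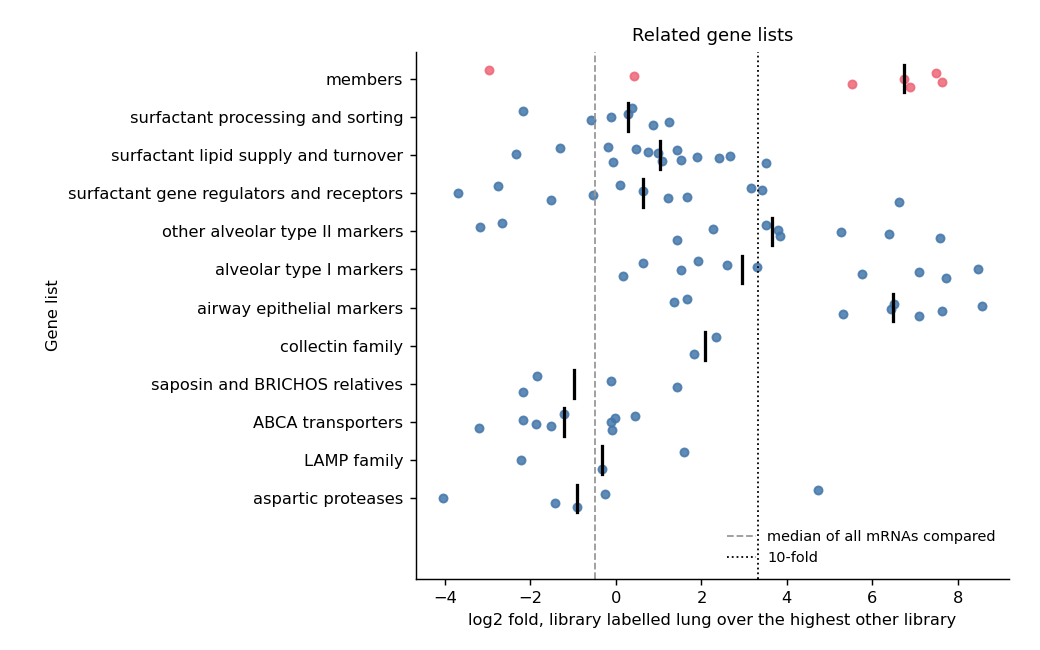
Log2 fold of the library labelled lung over the highest other library for the members (red) and for 11 related lists (blue), 1 point per mRNA with at least 10 reads under the lung label. Black bars are list medians, the dashed line is the median of all mRNAs and the dotted line is 10-fold. The members and the airway list have the highest medians, and the ABCA list has the lowest.

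The mRNAs whose pattern over the other 5 libraries was nearest to the mean of the 4 surfactant proteins were then ranked, by the Euclidean distance of their log2 ratios to the library labelled lung, among 1437 mRNAs with at least 1000 reads there. Outside the set, the 8 nearest were Ager (distance 2.11), Scgb1a1 (2.16), Sec14l3 (3.11), Chil3 (3.16), Bpifb1 (3.25), Aqp5 (3.30), Cldn18 (3.33) and Cbr2 (3.51). Among the members, Sftpc (1.91) was nearer than all 8, Lamp3 (2.26) and Sftpd (2.72) lay within this range, and Sftpb (4.13) and Sftpa1 (4.21) just beyond it. The log2 ratio of Sftpa1 under the small intestine label, -16.2, rested on 1 read, whereas 0 reads were set to 3. The 4 surfactant proteins made up the mean, so their own distances are a description. Napsa and Abca3 were far off, at places 215 and 430. Scgb1a1 and Ager, of airway and alveolar type I cells, also ranked 2 and 4 of all mRNAs under the lung label, at 20639 and 12635 RPKM. After these and the members Sftpc and Sftpa1, the 10 highest were made up by Ptma, Cbr2, mt-Atp6, Ptms, Rpl41 and Eef1a1, at 4908 to 12571 RPKM.

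Promoters were examined because 5 members were called at 10-fold and Nkx2-1, whose binding core is CAAG, was called too. A link between them was not tested. RefSeq promoters (GRCm38.p6) were matched for 4 of the 7 members, Sftpa1, Sftpb and Lamp3, which were called, and Abca3, which was not. The 250 bases before the start were searched on both strands. Capitals mark CAAG (or CTTG), the longer NKX2 form TNAAGTG, which contains CAAG where N is C, and the forkhead motif TNTTTAC. The windows shown are chr14:41131538-41131787 (plus strand), chr6:72304360-72304609 (plus strand) and chr16:19706366-19706615 (minus strand).
Sftpa1: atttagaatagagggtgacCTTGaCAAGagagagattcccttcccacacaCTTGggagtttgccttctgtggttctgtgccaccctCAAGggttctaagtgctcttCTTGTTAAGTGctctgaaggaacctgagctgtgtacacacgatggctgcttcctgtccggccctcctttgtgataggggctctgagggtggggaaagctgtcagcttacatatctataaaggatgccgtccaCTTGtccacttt
Sftpb: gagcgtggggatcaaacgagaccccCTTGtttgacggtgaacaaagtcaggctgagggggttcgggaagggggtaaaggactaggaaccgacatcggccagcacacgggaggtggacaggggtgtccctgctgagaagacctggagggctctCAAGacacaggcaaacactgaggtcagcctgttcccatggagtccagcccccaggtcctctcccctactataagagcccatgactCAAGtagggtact
Lamp3: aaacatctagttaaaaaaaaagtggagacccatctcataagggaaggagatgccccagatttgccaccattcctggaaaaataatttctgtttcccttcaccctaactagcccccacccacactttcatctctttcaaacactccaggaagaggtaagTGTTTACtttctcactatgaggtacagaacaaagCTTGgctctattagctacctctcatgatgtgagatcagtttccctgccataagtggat
Sftpa1 held 6 CAAG, a number that 2.90% of the 32851 promoters of the table reached, and 1 TNAAGTG, found in 10.1% of them. It also held a TATAAA, found in 12.4%. Sftpb held 3 CAAG, and 37.0% of promoters held 3 or more. Abca3 held 2, and 62.3% of promoters held 2 or more. Lamp3 held 1 CAAG, present in 86.6% of promoters, and 1 TNTTTAC, present in 10.9%. A match describes the letters of the window and is not a binding site.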

How the data were processed

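Ribosome-protected fragments from 6 tissue libraries (1 per label) were analysed from RPKM tables as deposited. Per the labels, reads were trimmed with cutadapt and aligned with STAR to GRCm39, and the study's methods, written for its macrophage libraries and taken to hold here, give reads of at least 15 nt, at most 2 mismatches, unique alignments and Ensembl release 107. The authors computed RPKM from P-sites on the CDS of 1 mRNA per gene. In each library the smallest nonzero product of RPKM and CDS length was taken as 1 read. In these units 100% of rows with reads were whole numbers (tolerance 0.01 reads). Depth recovered on this assumption ranged from 4504853 to 10635031 reads.

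Symbols came from GENCODE M39 (18424 of 18437 mRNAs matched). Folds compared the library labelled lung with the highest other library (10-fold, 0 reads set to 3, at least 10 reads). No model was fitted, since each label has 1 library. The named genes were all members, up to 3 per list with the highest level under the lung label, any at least 10-fold higher, the 10 highest mRNAs and the 8 of most similar pattern. The members and lists were chosen with earlier results of these data known. Genes beyond this rule (Fasn, Scd1, Srebf1, uncalled type II markers, genes below the read filter and tissue markers) were named as comparators after their values were seen. Of the lists, Chil1 was found as Chi3l1, and Gkn1, Bricd5, Pga5 and Cym had no row. Alternatives covered scaling, fold, floor, pseudocount and filter. Python 3.11.15 with numpy 2.4.6, pandas 2.3.3, scipy 1.17.1 and matplotlib 3.10.9 was used, and the steps were tested on simulated data. Planned protein features were counted on the CDS.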

Additional observations from a re-analysis of the deposited data

How the results depend on the processing

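The count of 5 members higher in the library labelled lung held under every alternative run except a 100-fold limit, which left 4. The count of all mRNAs, 267 as reported, became 169 with TMM scaling, 569 at 5-fold, 19 at 100-fold and 153 with RPKM + 1. TMM scaling moved the median log2 fold of all mRNAs by -0.51, and leaving out Kri1 and mitochondrially encoded mRNAs, which took unequal shares of the libraries, moved it by -0.16. The share of reads on the 4 surfactant proteins, 3.40% as reported, was 3.44% without those mRNAs and 2.49% with TMM scaling. Folds with TMM scaling were 119 for Sftpc, 108 for Lamp3, 71.7 for Sftpa1, 64.9 for Sftpd, 27.98 for Sftpb, 1.07 for Abca3 and 0.102 for Napsa. By reads in place of RPKM, the shares of the surfactant proteins were 67.0% for Sftpc, 29.0% for Sftpa1, 2.96% for Sftpd and 1.01% for Sftpb. Of the lists, lipid supply had 3 mRNAs at 5-fold and 0 with TMM scaling against 1, regulators and receptors 1 with TMM scaling against 2, other alveolar type II markers 3 with TMM scaling against 6, and collectins 1 at 5-fold against 0. Leaving out the library labelled heart or colon was chosen after seeing the data. Without heart the folds were 151 to 347 for the 5 members called, and without colon Sftpc and the other 4 kept theirs. Leaving out colon turned the fold of Napsa to 4.99 and raised that of Abca3 to 2.73. Pairs of a member and a library below 1% numbered 23 with TMM scaling against 26. Of the 126 recomputed values of single genes, 75 stayed within counting error, 50 moved beyond it and 1 reversed. The causes of these changes were not tested beyond what the settings themselves remove. No paired analysis was possible because each tissue has 1 library. Sftpb under the colon, brain and kidney labels, at 6 to 13 reads, could not be ordered at this depth.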
